A study of Mus musculus with 6 samples.

Results

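*Gp49a*, *Lilrb4*, *Cd300a*, *Cd300lf* and *Cd300ld*, which encode paired immunoglobulin-like receptors, are described across naive and polarized CD4+ T cells of the mouse. They were taken by gene symbol from the RNA-Seq count tables, where the 5 genes are 5 of 24223 rows, and all 5 were among the 13607 genes kept for testing. They were chosen by their measured expression: *Gp49a* and *Lilrb4* were higher in both polarized cultures than in naive cells, and *Cd300lf* was higher in Th17 cells. The differences that chose them are therefore given as values without a test. The samples are Naive CD4+CD62L+/CD44- T cells, isolated from the lymph nodes and spleens of C57BL/6 mice (1 to 2 months of age, tissues pooled), and the Th17 and Th1 cells grown from such cells with anti-CD3 and anti-CD28. Th17 cultures received anti-IL-4, anti-IFN-γ, TGF-β, IL-6, IL-1β and IL-23, while Th1 cultures received anti-IL-4, IL-12 and IL-2, and both were collected on day 5. Each of the 3 groups holds 2 libraries. The study describes the libraries of a group as independent biological replicates. The labels do not say whether the 2 came from separate animals or cultures, and the p-values measure the spread between these libraries.

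Receptors of these families are studied mostly on myeloid cells and mast cells and come in inhibitory and activating forms. An inhibitory member such as Lilrb4 (gp49B), Cd300a or Cd300lf carries immunoreceptor tyrosine-based inhibitory motifs (ITIMs) in its cytoplasmic tail, which recruit the phosphatases SHP-1 and SHIP once a Src family kinase has phosphorylated them. Gp49a is the close relative of Lilrb4 without such a tail, and Cd300ld pairs with the adaptor chain FcRγ, the product of *Fcer1g*. Cd300a and Cd300lf bind lipids of cell membranes, and Cd300lf is also the receptor of murine norovirus.

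The symbols *Gp49a* and *Lilrb4* correspond to *Lilr4b* and *Lilrb4a* in GENCODE vM21. In mm10 (GRCm38) coordinates, *Gp49a* lies at chr10:51480632-51486703 on the plus strand, and *Lilrb4* follows it at chr10:51490956-51496611 on the same strand, 4252 bases further on. The Cd300 genes form a cluster on chromosome 11, with *Cd300a* at chr11:114890041-114904654 on the plus strand, *Cd300ld* at chr11:114982274-114989922 on the minus strand and *Cd300lf* at chr11:115116214-115133992 on the minus strand. *Cd300lf* lies inside *Rab37* and on the opposite strand, with no exon base shared between them. The coding sequences of *Gp49a* and *Lilrb4* were identical at 871 of 907 aligned bases, or 96.0%, and the first 120 bases, at chr10:51480720-51481189 and chr10:51491018-51491483, are printed because they show how little separates reads of the pair. Capitals mark the 2 bases that differ.
Gp49a, start of the coding sequence: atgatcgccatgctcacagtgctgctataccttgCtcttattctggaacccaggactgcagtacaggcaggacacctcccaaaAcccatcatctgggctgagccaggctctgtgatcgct
Lilrb4, start of the coding sequence: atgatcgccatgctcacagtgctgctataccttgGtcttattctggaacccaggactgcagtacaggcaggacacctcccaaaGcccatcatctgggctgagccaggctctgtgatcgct

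The reading frames part at the end of the coding sequence, where only *Lilrb4* encodes the inhibitory tail. The stretches below run from coding base 842 to the last base before the stop codon, at chr10:51484547-51485757 for *Gp49a* and chr10:51494823-51496241 for *Lilrb4*. Capitals mark bases without an identical partner in the other coding sequence. Bases of *Gp49a* after its stop codon were not aligned, so the capitals at the end of *Lilrb4* do not show that the genes differ there. In this alignment *Gp49a* carries additional bases in a run of C and its reading frame ends after 303 codons, while the frame of *Lilrb4* runs to 335 codons.
Gp49a, end of the coding sequence: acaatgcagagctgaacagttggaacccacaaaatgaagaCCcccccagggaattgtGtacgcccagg
Lilrb4, end of the coding sequence: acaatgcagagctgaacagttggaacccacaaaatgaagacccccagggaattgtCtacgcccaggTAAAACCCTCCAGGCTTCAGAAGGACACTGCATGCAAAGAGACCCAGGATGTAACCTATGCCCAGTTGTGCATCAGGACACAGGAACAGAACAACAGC

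A search of the annotated reading frames for the ITIM pattern, a tyrosine codon with a codon of Ser, Ile, Val or Leu at the second position before it and one of Ile, Leu or Val at the third after it, was limited to the tail behind the most hydrophobic stretch of 19 codons. It found 2 such patterns in each of *Lilrb4*, *Cd300a* and *Cd300lf*, and 0 in *Gp49a* and *Cd300ld*. These 6 short stretches are printed because they separate the inhibitory members from the others, with the tyrosine codon in capitals.
Lilrb4, tyrosine codon 300: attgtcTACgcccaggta
Lilrb4, tyrosine codon 322: gtaaccTATgcccagttg
Cd300a, tyrosine codon 262: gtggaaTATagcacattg
Cd300a, tyrosine codon 274: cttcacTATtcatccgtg
Cd300lf, tyrosine codon 241: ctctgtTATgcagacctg
Cd300lf, tyrosine codon 289: gtttcaTATgccgctctg

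Sequencing depth ranged from 17742158 to 69080017 counts per library, and in every group the library numbered 1 held more than 3 times the counts of the library numbered 2. A count of 3, taken as the limit of detection, corresponded to between 0.0440 and 0.190 CPM, the TMM-scaled read count relative to library size (factors 0.862 to 1.09). Defining T cell markers were present in every library, with the summed level of 11 markers at 4280 to 5634 CPM in Naive, 4366 to 5175 CPM in Th17 and 5188 to 6429 CPM in Th1 cells. Markers of other cells were not equal between the groups: 15 neutrophil markers summed to 245 to 423 CPM in Naive, 3254 to 3420 CPM in Th17 and 44.7 to 67.8 CPM in Th1 cells. In the same order, 15 macrophage and dendritic cell markers summed to 53.2 to 91.5, 720 to 1342 and 147 to 166 CPM, and 16 mast cell, basophil and eosinophil markers to 70.0 to 236, 305 to 676 and 73.2 to 92.8 CPM. Likewise 9 NK cell markers, of which *Klra8* and *Klra4* had 0 counts in every library, summed to 48.7 to 54.1, 76.4 to 92.7 and 180 to 320 CPM, and 6 B cell markers to 6.54 to 10.6, 13.4 to 17.4 and 2.49 to 3.29 CPM. Most of the NK cell sum in Th1 was *Gzma*, at 136 and 297 CPM against 4.89 and 1.88 CPM in Naive libraries. *Klrb1c* went the other way, from 17.4 and 11.2 CPM in Naive to 0.170 and 0.126 CPM in Th1 libraries. The macrophage and dendritic cell sum was likewise dominated by *Ccr2* in Th1, where this gene gave 132 of 147 CPM (library 1) and 151 of 166 CPM (library 2). For Naive its part was 31.5 of 91.5 and 25.1 of 53.2 CPM, and for Th17 it was 465 of 720 and 459 of 1342 CPM. The higher sum in Th1 than in Naive libraries therefore rested on *Ccr2*, whereas *Csf1r* and *Cd163* of the same list were called lower in Th1. In Th17 against Naive cells *Cd163* was also called lower, while 5 of the 14 tested genes of that list were called higher. The largest parts of the neutrophil sum in Th17 were *S100a8* (1149 and 1142 CPM) and *S100a9* (1039 and 1060 CPM). *Mpo*, the largest part in Naive (251 and 159 CPM), was called lower in Th17 (68.1 and 58.7 CPM). *Elane*, *Prtn3* and *Ctsg* were not called there, and 11 of the 15 were called higher. Some of these, such as *Mmp8* and *Retnlg*, were kept for testing only through the Th17 libraries. In these bulk libraries, a change in the number of cells of a type and a change in RNA per cell cannot be told apart.

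**Figure D1:**
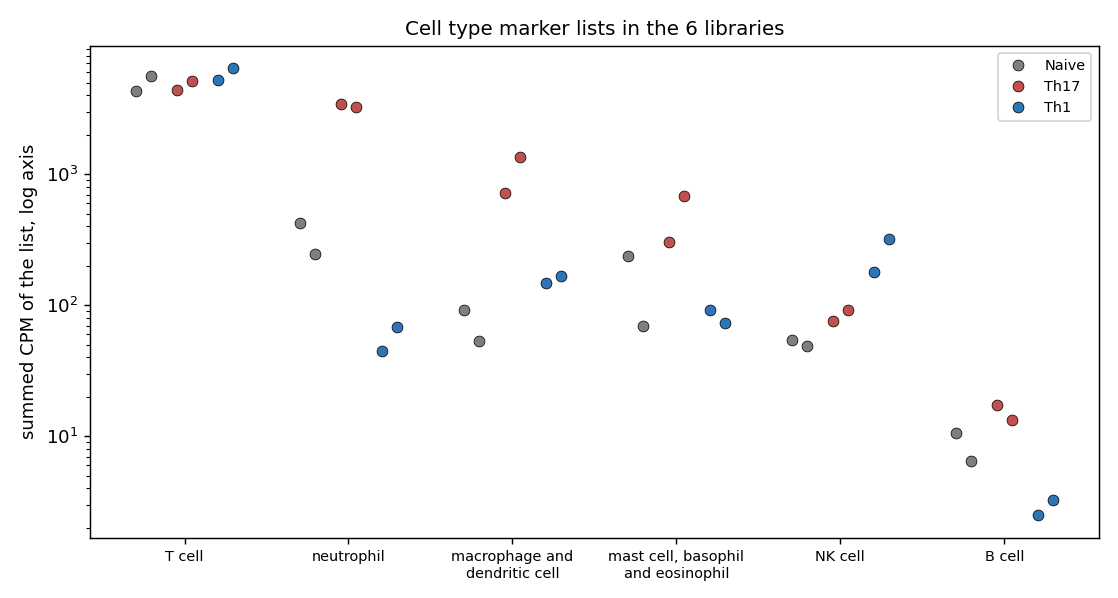
Summed CPM of each cell type marker list (log axis) in the 6 libraries, 1 point per library. The T cell sums lie close together, whereas the 2 Th17 libraries stand at 3254 and 3420 CPM for neutrophil markers, above the other 4.

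*Lilrb4* was low in Naive cells and had the highest mean level per length of the 5 transcripts in both cultures. Its counts were 61 and 15 (Naive), 7537 and 2672 (Th17) and 8256 and 1320 (Th1), which are 0.895 and 0.743, 115 and 151, and 128 and 83.5 CPM. Both cultures stood above both Naive libraries, and the Th17 and Th1 values overlapped. The log2 fold change against Naive cells was 7.31 ± 0.40 (SE, n = 2 per group) in Th17 and 6.98 ± 0.39 in Th1 cells. Between the cultures, a contrast that did not pick the gene, *Lilrb4* differed by −0.33 ± 0.29 on the log2 scale (Th1 against Th17, 95% interval −0.98 to 0.31), which did not pass the edgeR quasi-likelihood test (adjusted p = 0.44).

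*Gp49a*, the neighbour without the inhibitory tail, was also low in Naive cells. The counts were 36 and 5 (Naive), 4539 and 1348 (Th17) and 8088 and 1263 (Th1), or 0.528 and 0.248, 69.5 and 76.3, and 125 and 79.9 CPM. The Naive libraries were the lowest, and in TMM-scaled CPM both Th1 values lay above both Th17 values. With library size alone that order did not hold. Th1 library 2 had 1263 counts of 18347752, and Th17 library 2 had 1348 of 17742158. The log2 fold change against Naive cells was 7.39 ± 0.45 in Th17 and 7.88 ± 0.45 in Th1 cells. The Th1 against Th17 difference of 0.49 ± 0.32 (95% interval −0.22 to 1.21) did not pass the test (edgeR, adjusted p = 0.30).

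*Gp49a* made up a larger share of the pair in the Th1 than in the Th17 libraries. Of the counts of *Gp49a* and *Lilrb4* together, *Gp49a* made up 37.6% (exact 95% binomial interval 36.7 to 38.5) and 33.5% (32.1 to 35.0) in the Th17 libraries, against 49.5% (48.7 to 50.3) and 48.9% (47.0 to 50.8) in the Th1 libraries. In Naive cells, where the pair had only 97 and 20 counts, the shares were 37.1% (27.5 to 47.5) and 25.0% (8.66 to 49.1). The intervals of the Th1 libraries did not overlap those of the Th17 libraries, and the mean share was 13.6 percentage points higher in Th1, yet the exact two-sided permutation test gave p = 0.333, the smallest it can give with 2 libraries against 2. The intervals cover counting error only, and the share was examined after the values of both genes had been seen. The summed level of the pair was 206 ± 30.2 CPM (SD, n = 2) in Th17 and 208 ± 63.3 CPM in Th1 cells.

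**Figure D2:**
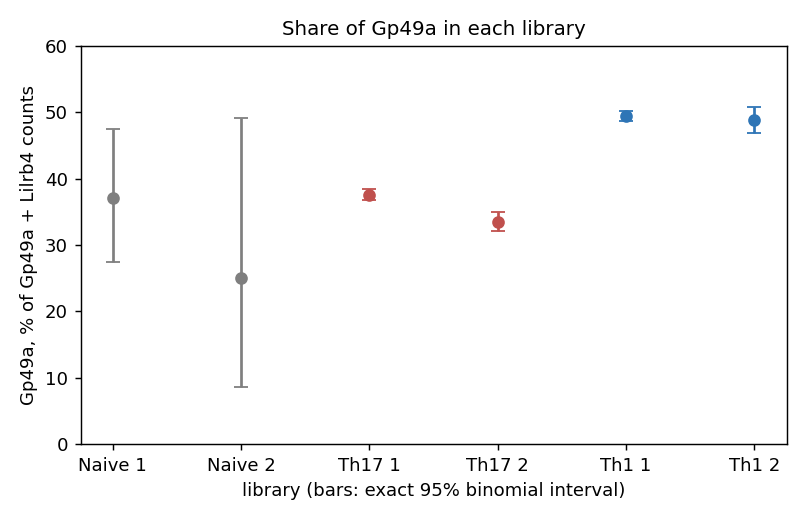
Counts of Gp49a as a percentage of the counts of Gp49a and Lilrb4 in each library (y axis, from 0), with exact 95% binomial intervals as bars. The Th1 libraries sit at 49.5% and 48.9%, above the Th17 libraries at 37.6% and 33.5%, and the Naive intervals are wide.

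How reads of so similar a pair were split bears on these values. The longest identical run in the coding sequences was 126 bases, shorter than the 150 bases of a read, but over the whole transcripts 5.45% of the 150-base windows of *Gp49a* occurred in *Lilrb4*, and 7.47% of those of *Lilrb4* in *Gp49a*. HTSeq with default settings leaves out reads that align to several places, so both levels may be understated by different amounts. The annotated readthrough gene *Gm49339* also shares 1341 of 1437 exon bases of *Lilrb4* and 122 of 1836 of *Gp49a*. It was not analysed here, and whether the annotation used for counting held it is not given in the sources used here.

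*Cd300lf*, the inhibitory receptor picked for Th17 cells, had 33 and 7 counts (Naive), 894 and 267 counts (Th17) and 35 and 5 counts (Th1). These are 0.484 and 0.347, 13.7 and 15.1, and 0.542 and 0.316 CPM. Both Th17 libraries were far above the other 4, and the Naive and Th1 values overlapped. The log2 fold change was 5.06 ± 0.51 for Th17 against Naive, 0.09 ± 0.49 for Th1 against Naive and −4.97 ± 0.51 for Th1 against Th17.

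*Cd300a*, a second inhibitory member of the cluster, lay above Naive in Th17 and below it in Th1 cells. The libraries held 249 and 31 counts (Naive), 620 and 254 counts (Th17) and 37 and 7 counts (Th1), or 3.66 and 1.54, 9.49 and 14.4, and 0.572 and 0.443 CPM. No library of one group overlapped another group, with Th17 highest and Th1 lowest. The log2 fold changes against Naive were 2.17 ± 0.51 in Th17 and −2.33 ± 0.55 in Th1 cells, neither of which met the threshold for a call. *Cd300a* was lower in Th1 than in Th17 cells by a log2 fold change of −4.50 ± 0.59 (95% interval −5.81 to −3.19, edgeR adjusted p = 0.00125).

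*Cd300ld*, the activating member, was detected above the limit in Th17 cells only. It had 2 and 0 counts in the Naive libraries, 51 and 80 in Th17 and 0 and 0 in Th1, where the deeper Th1 library allows up to 0.0464 CPM. The Th17 libraries held 0.780 and 4.53 CPM, which are far apart but both above every Naive and Th1 library. Against the highest 3-count limit of a library in the group, the mean of the Th17 libraries was at least 17.9-fold higher than Naive and at least 14.0-fold higher than Th1. With Th17 library 2 left out, the bounds were 5.26 and 4.09. The bounds were 30.6 and 24.0 without Th17 library 1, the bound against Naive was 59.7 without Naive library 2, and the bound against Th1 was 56.6 without Th1 library 2. The library with the higher *Cd300ld* was also the one with 1342 against 720 CPM of macrophage and dendritic cell markers, and the part of those cells in the *Cd300ld* level was not tested. *Cd300ld* passed the filter on low counts only through the Th17 libraries, so its difference is given without a test.

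**Figure D3:**
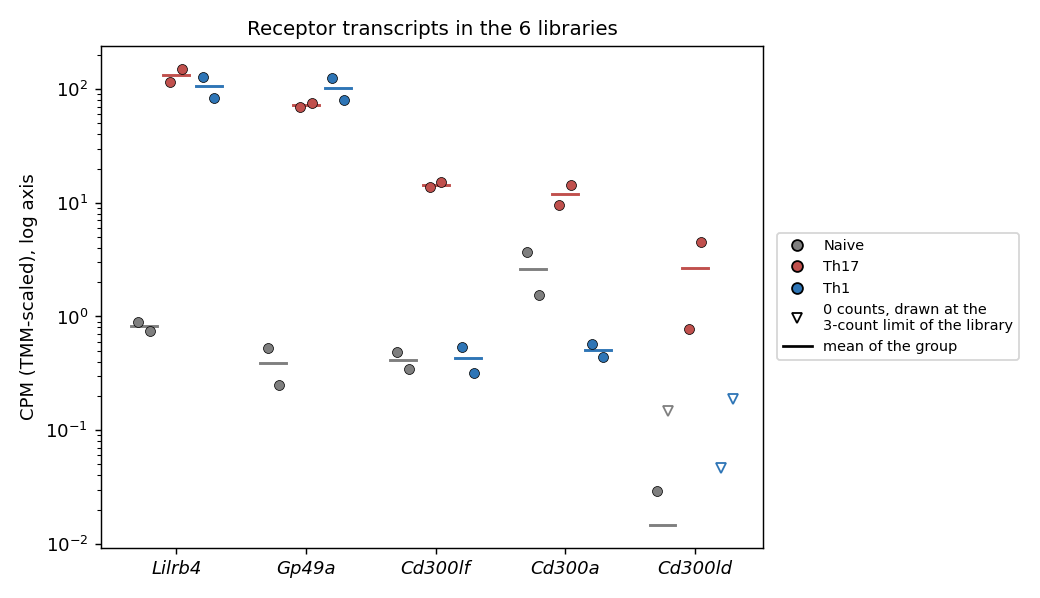
CPM (log axis) of the 5 genes in the 2 libraries of each group, with open triangles at the 3-count limit for libraries with 0 counts and a line at the mean of the group. Lilrb4 and Gp49a stand between 69.5 and 151 CPM in all 4 polarized libraries, whereas the Cd300 genes are highest in the Th17 libraries.

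The limits used to call a gene were an adjusted p under 0.01 and a log2 fold change above 1 in the edgeR test. For Th17 above Naive, *Gp49a*, *Lilrb4* and *Cd300lf*, 3 of the 5, lay past them, beside 4.01% of the 13607 genes, and for Th1 above Naive *Gp49a* and *Lilrb4*, 2 of 5, beside 4.64%. Those differences chose the genes, so these counts were fixed by the choice, test nothing, and nothing is read from them. For Th1 below Th17, 3 of 5 lay past the limits beside 2.83% of all genes, but *Cd300lf* was chosen for being high in Th17 and *Cd300ld* was kept only through its Th17 libraries, which leaves *Cd300a* as the one call that the choice did not fix. The median log2 fold change of all genes was −0.02 in Th17 against Naive, −0.02 in Th1 against Naive and −0.03 in Th1 against Th17.

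**Figure D4:**
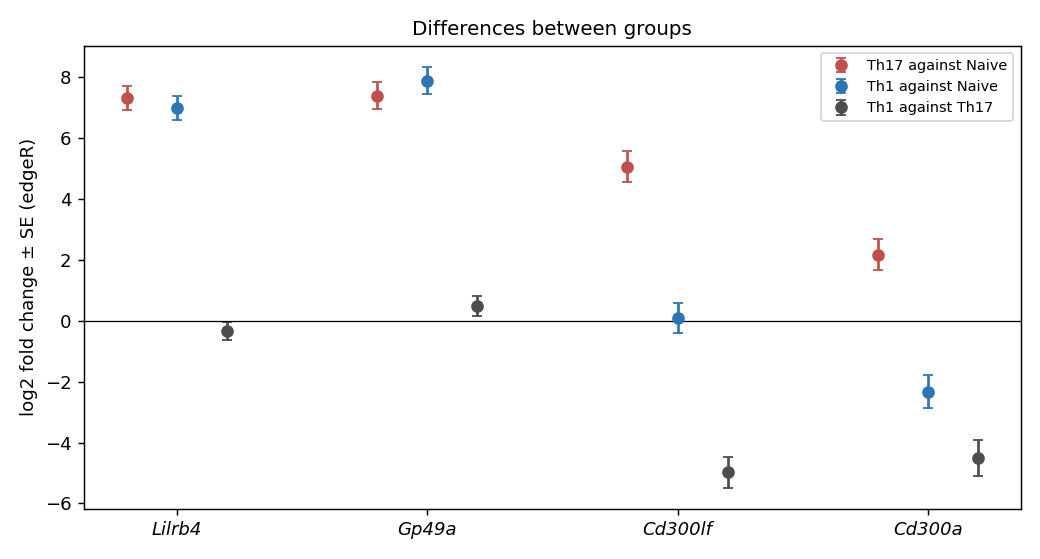
Log2 fold changes with standard errors (edgeR) of 4 of the genes in the 3 comparisons between groups. Lilrb4 and Gp49a are displaced by 6.98 to 7.88 from Naive in both cultures and lie near 0 between the cultures, whereas Cd300lf and Cd300a lie at −4.97 and −4.50 in Th1 against Th17. Cd300ld is left out because its folds against a group at the limit are given as bounds.

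Per kilobase of exon, the order of the 5 transcripts changed between groups. In Th17 cells *Lilrb4* came first at 92.8 ± 17.6 CPM per kb (SD, n = 2), then *Gp49a* at 39.7 ± 2.62, *Cd300lf* at 7.61 ± 0.533, *Cd300a* at 2.57 ± 0.743 and *Cd300ld* at 1.00 ± 1.00. No neighbours in that order overlapped. In Th1 cells *Lilrb4* at 73.5 ± 21.8 and *Gp49a* at 55.8 ± 17.4 CPM per kb overlapped, and the other 3 lay at or below 0.227 on average. In Naive cells *Lilrb4* at 0.570 ± 0.0751 overlapped *Cd300a* at 0.559 ± 0.323, and *Cd300lf* at 0.220 ± 0.0515 overlapped *Gp49a* at 0.211 ± 0.108.

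As profiles over the 6 libraries, *Gp49a* and *Lilrb4* were close to each other and far from the Cd300 genes. The root mean square difference of their centred log2 CPM was 0.49, against 3.30 between *Gp49a* and *Cd300lf*, 0.73 between *Cd300lf* and *Cd300ld* and 1.20 between *Cd300lf* and *Cd300a*. *Gp49a* and *Lilrb4* were chosen for being high in both cultures and *Cd300lf* for being high in Th17 cells. The choice thus largely fixed the distances among these 3 genes, and nothing is read from them. Among all other tested genes, the profile nearest to *Gp49a* was that of *AA467197* at 0.46, followed by *Csf2* (0.59), which encodes GM-CSF, *Eps8* (0.66), *Cdkn1a* (0.69) and *Cysltr1* (0.73), the leukotriene receptor gene. The nearest to *Lilrb4* were *Cysltr1* (0.47), *Csf2* (0.51), *Cdkn1a* (0.67), *AA467197* (0.69) and *Scrt1* (0.70). *Csf2* had 0.279 and 0.0990 CPM in Naive, 30.4 and 24.5 CPM in Th17 and 20.5 and 32.5 CPM in Th1 libraries. For *Cd300lf* the nearest were *Slc11a1* (0.22), a metal transporter of phagocytes, *LOC100038947* (0.23), *Ccl20* (0.24), a chemokine gene, *Has2* (0.30) and *Glyat* (0.34), of which *Ccl20* had 91 and 28 counts in Th17 libraries and 0 in the other 4. The genes nearest to *Cd300lf* all passed the filter on low counts only through the Th17 libraries, and *Cd300lf* was chosen for being high there. The prior count also compresses differences between genes near 0 counts. Nothing is read from the nearness of these genes. All these likenesses are descriptions over 6 libraries that share their depth and group structure.

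The other genes of the families were measured beside the members. *Cd300lb*, an activating member of the cluster, had 0.837 and 0.792 CPM in Naive, 2.65 and 4.98 CPM in Th17 and 0.186 and 0.0632 CPM in Th1 libraries, the same order of groups as *Cd300a*. It was lower in Th1 than in Th17 cells by a log2 fold change of −4.66 (edgeR, adjusted p = 0.00274), a call lost without Th17 library 2 or either Th1 library, and it did not pass against Naive in either culture. *Cd300c*, *Cd300e*, *Cd300lg* and *Cd300lh* did not reach the filter on low counts: *Cd300c* and *Cd300lg* had their highest values, 0.198 and 0.426 CPM, in Naive libraries, *Cd300e* reached 0.0566 CPM, and *Cd300lh* had 0 counts in all 6. The coding sequence of *Cd300lf* was 84.1% identical to that of *Cd300ld* with a longest identical run of 134 bases, and that of *Cd300a* 82.2% identical to that of *Cd300c2* with a run of 140, so some reads of these pairs may also be undecided.

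In the second family, *Pirb*, which encodes the inhibitory paired receptor PIR-B, was high in Th17 libraries only. It held 0.690 and 0.644 CPM in Naive, 10.5 and 14.2 CPM in Th17 and 0.774 and 0.759 CPM in Th1 libraries, and was called higher in Th17 than in Naive (log2 fold change 4.20, edgeR adjusted p = 0.000557) and lower in Th1 than in Th17 cells (−4.00, adjusted p = 0.000724). *Lilra6* stood at 2.42 and 2.55 CPM in Th17 libraries, with 13 and 1 counts in Naive and 13 and 4 counts in Th1 libraries. Its fitted log2 fold change in Th17 against Naive was 4.12. *Lilra6* passed the filter on low counts only through the Th17 libraries, so this difference is given without a test. *Pira2* and *Pira6* reached at most 0.849 and 1.81 CPM, in Th17, without a call, and *Lilra5* reached 0.0464 CPM. *Pira1*, *Pira4*, *Pira7* and *Pira11* had 0 counts throughout, and the genes of this group are near-identical copies whose reads may be split or left out.

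Neighbouring genes were checked for the same changes. Within 200 kb of *Gp49a* and *Lilrb4*, the 3 annotated genes with a row in the count tables (*Fam162b*, *Gprc6a* and *Rfx6*) did not reach the filter. Of 18 such genes around the Cd300 members, 9 were tested and 1, *Cd300lb*, was called, in Th1 against Th17. *Rab37*, the small GTPase gene that surrounds *Cd300lf*, had 112 and 116 CPM in Naive, 96.9 and 123 CPM in Th17 and 75.3 and 83.6 CPM in Th1 libraries and was not called. Which strand setting made the counts is not certain, so intronic reads of *Rab37* over exons of *Cd300lf* may be among the counts of *Cd300lf*.

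*Cd300lf* and *Cd300ld* were high in the same libraries, so their promoters are printed, from 250 bases before to 50 bases after the RefSeq start, on GRCm38.p6 (chr11:115133943-115134242 and chr11:114989837-114990136, both minus strand, written 5′ to 3′). Of the 5 members, 4 had an entry in the RefSeq promoter table. Both sequences hold GAGGAAGT, in capitals, which was searched on both strands after the sequences had been seen. It was absent from the *Gp49a* and *Cd300a* entries and present in 3.20% of 32851 mouse promoters of that length. The match is a description of these letters and names no factor.
Cd300lf promoter: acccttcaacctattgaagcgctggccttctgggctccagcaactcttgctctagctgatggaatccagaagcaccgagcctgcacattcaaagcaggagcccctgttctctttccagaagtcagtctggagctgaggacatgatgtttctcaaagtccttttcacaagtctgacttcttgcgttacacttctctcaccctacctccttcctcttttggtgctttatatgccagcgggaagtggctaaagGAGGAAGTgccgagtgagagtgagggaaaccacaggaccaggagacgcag
Cd300ld promoter: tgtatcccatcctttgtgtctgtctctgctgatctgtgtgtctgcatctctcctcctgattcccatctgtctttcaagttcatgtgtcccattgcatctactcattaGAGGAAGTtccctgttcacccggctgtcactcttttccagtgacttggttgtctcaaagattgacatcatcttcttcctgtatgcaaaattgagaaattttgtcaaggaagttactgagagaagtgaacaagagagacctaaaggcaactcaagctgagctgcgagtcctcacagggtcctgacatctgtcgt

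The enzymes that act on ITIMs were expressed in all groups. *Ptpn6*, which encodes SHP-1, stood at 334 and 360 CPM in Naive, 193 and 215 CPM in Th17 and 243 and 273 CPM in Th1 libraries, and *Inpp5d*, which encodes SHIP, at 120 and 168, 94.4 and 58.9, and 144 and 143 CPM. *Lyn*, a Src family kinase gene, was lower in Th1 than in Th17 cells (log2 fold change −2.60, edgeR adjusted p = 0.00804), and *Fyn*, a kinase gene abundant in T cells, was higher (2.02, adjusted p = 0.00342). The call of *Lyn* was lost without any 1 of the Th17 or Th1 libraries, and that of *Fyn* without either Th17 library or Th1 library 2. *Lck* and *Csk*, which with *Fyn* were the most abundant of 10 kinase and phosphatase genes measured, were not called.

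Adaptor and signalling genes for activating receptors centred on −0.12 (median log2 fold change) for Th17 against Naive. Of the 11, 8 were not called there, while *Fcer1g*, *Tyrobp* and *Lat2* rose in Th17 against Naive and fell in Th1 against Th17. Of all genes tested, 4.01% rose in the first and 2.83% fell in the second of these comparisons. In Th1 against Naive 0 were called by edgeR, with 1 higher and 3 lower at an unadjusted p under 0.05, and 1 was called lower by DESeq2. *Fcer1g*, whose FcRγ product carries the signal of Cd300ld, stood at 7.22 and 3.66 (Naive), 23.4 and 41.8 (Th17) and 3.14 and 2.09 CPM (Th1). Its log2 fold change was 2.56 in Th17 against Naive (edgeR, adjusted p = 0.00598) and −3.61 in Th1 against Th17 (adjusted p = 0.00149). *Tyrobp*, which encodes DAP12, had log2 fold changes of 2.72 and −4.24 (adjusted p = 0.00918 and 0.00155), and *Lat2* of 2.49 and −2.68 (adjusted p = 0.00996 and 0.00749). The Th17 against Naive calls of all 3 were lost without Naive library 2 or either Th17 library, that of *Lat2* also without Naive library 1, and the *Lat2* call between the cultures was lost without any 1 of the Th17 or Th1 libraries. The T cell adaptors *Lat*, *Zap70* and *Cd247* were the most abundant of the list and were not called.

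Other inhibitory receptors known from myeloid cells were measured beside the members. Of 13 tested, 8 rose in Th17 against Naive (*Sirpa*, *Siglece*, *Clec12a*, *Clec4a2*, *Pilra*, *Fcgr2b*, *Milr1* and *Cd33*), 1 rose and 1 fell in Th1 against Naive (*Milr1* and *Clec12a*), and 8 fell in Th1 against Th17, *Siglecg* in place of *Milr1*. Of all genes tested, 4.01% rose in Th17 against Naive and 2.83% fell in Th1 against Th17. In Th1 against Naive, 4.64% of all genes rose and 2.81% fell. *Pilra* and *Siglecg* passed the filter on low counts only through the Th17 libraries, so nothing is read from their part in these counts. *Cd33* had 0.235 and 0.0495 CPM in Naive, 10.2 and 7.53 CPM in Th17 and 0.340 and 0.379 CPM in Th1 libraries. *Milr1*, the gene of the mast cell receptor allergin-1, was the one gene of this list called above Naive in both cultures, with log2 fold changes of 2.60 in Th17 and 1.61 in Th1 (adjusted p = 0.000889 and 0.00719, the second lost with any 1 library left out), from 5.65 and 5.40 CPM in Naive to 28.3 and 39.0 CPM in Th17 and 17.2 and 16.6 CPM in Th1 libraries. *Pecam1* and *Cd200r1*, the most abundant of the list, were not called.

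Of 16 activating receptors tested, 8 rose in Th17 against Naive (*Pilrb1*, *Pilrb2*, *Trem1*, *Treml1*, *Fcgr1*, *Clec4e*, *Clec5a* and *Fcer1a*), 3 rose in Th1 against Naive (*Pilrb1*, *Pilrb2* and *Treml2*) and 7 fell in Th1 against Th17 (*Trem1*, *Fcgr1*, *Clec4d*, *Clec4e*, *Clec5a*, *Clec7a* and *Fcer1a*). The shares of all genes tested in these comparisons were 4.01%, 4.64% and 2.83%. *Trem1* and *Fcgr1* passed the filter on low counts only through the Th17 libraries, so nothing is read from their part in these counts. *Pilrb1* and *Pilrb2*, paired receptors like the members, were called above Naive in both cultures. *Pilrb1* had 0.0587 and 0.0495 CPM in Naive, 2.39 and 3.17 CPM in Th17 and 6.90 and 4.05 CPM in Th1 libraries. *Treml2* was the most abundant of the list, at 110 and 129 CPM in Naive and 350 CPM in both Th1 libraries. *Fcgr3*, at 21.4 and 52.2 CPM in Th17 libraries, was not called.

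Over the 59 tested genes of these lists that are not members, 22 rose and 0 fell in Th17 against Naive, or 37.3% and 0% beside 4.01% and 1.43% of all genes tested. In Th1 against Naive 4 rose and 3 fell, or 6.78% and 5.08% beside 4.64% and 2.81%, and in Th1 against Th17 2 rose and 23 fell, or 3.39% and 39.0% beside 2.70% and 2.83%. The lists were chosen with earlier results of these data known, so these shares are descriptions and test nothing. The list medians of the log2 fold change, with 4 to 6 genes at the limit in a group set to their bound or left out, were 2.24, 0.00 and −2.13. For the 0 genes that fell in Th17 by edgeR, 5 were lower at an unadjusted p under 0.05 and 1 was called by DESeq2. The 22 calls became 11 without Naive library 2, 12 without Th17 library 1 and 9 without Th17 library 2, and the 23 became 14 without Th17 library 2, 10 without Th1 library 1 and 12 without Th1 library 2. Of these genes, 9 kept the call in Th17 against Naive whichever library was left out (*Pirb*, *Clec4a2*, *Pilra*, *Milr1*, *Cd33*, *Pilrb1*, *Pilrb2*, *Clec5a* and *Fcer1a*), as did 1 of 7 in Th1 against Naive (*Pilrb1*) and 9 of 25 in Th1 against Th17, among them *Pirb*, *Fcer1g*, *Tyrobp*, *Sirpa*, *Clec12a*, *Clec4a2*, *Pilra* and *Clec5a*. Among the called genes, *Lilra6*, *Pilra*, *Trem1*, *Fcgr1* and *Siglecg* passed the filter on low counts only through the Th17 libraries, as *Cd300ld* did. The counts above include them. Nothing is read from the calls of those genes. The summed markers of neutrophils, macrophages and mast cells moved in the same direction between Th17 and Th1 cells, and their part in the calls of the lists and in the Cd300 levels was not tested. In Th1 against Naive cells, where *Gp49a* and *Lilrb4* were also high, single markers moved both ways: of 15 neutrophil markers, 5 were called higher (*Ltf*, *Ngp*, *Lcn2*, *S100a8* and *S100a9*) and 5 lower (*Elane*, *Mpo*, *Prtn3*, *Ctsg* and *Cebpe*), of 14 tested macrophage and dendritic cell markers 1 higher (*Ccr2*) and 2 lower (*Csf1r* and *Cd163*), and of 15 tested mast cell, basophil and eosinophil markers 1 lower (*Prg2*). The part of these cells in the levels of *Gp49a* and *Lilrb4* was not tested.

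**Figure D5:**
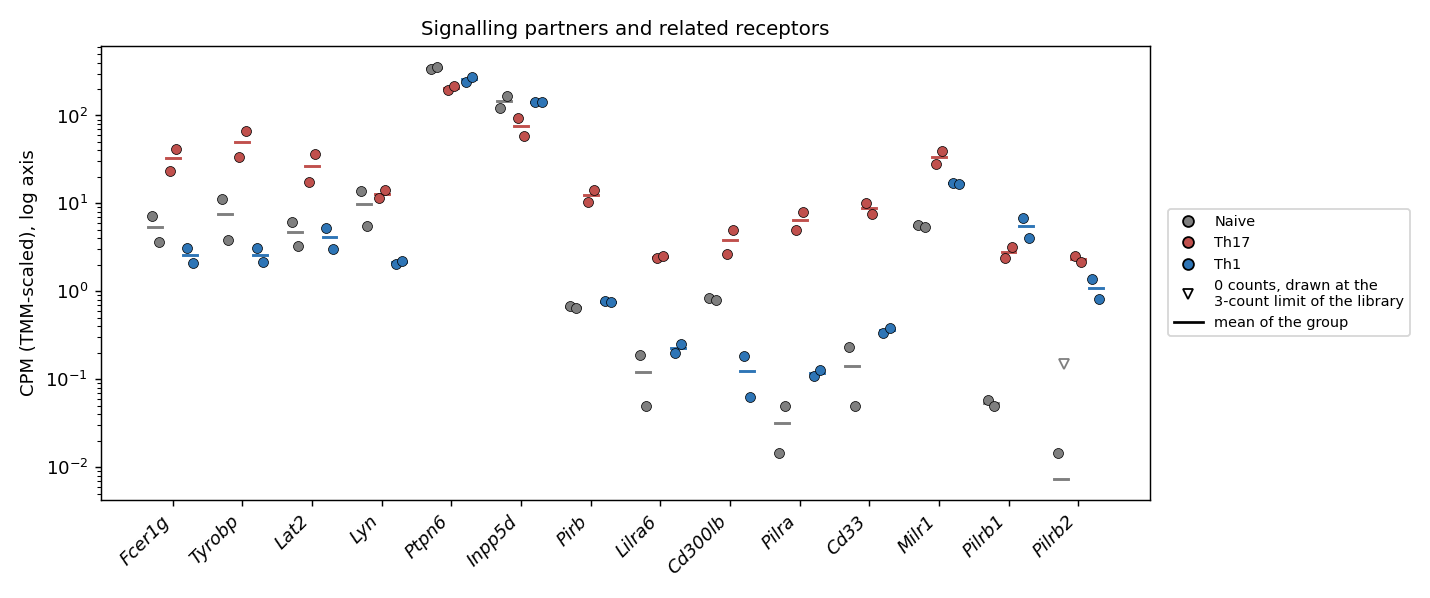
CPM (log axis) of ITIM enzymes, adaptors and related receptors in the 2 libraries of each group, with an open triangle at the 3-count limit for a library with 0 counts. Fcer1g, Tyrobp, Pirb and Cd33 are highest in both Th17 libraries, whereas Pilrb1 is highest in Th1 libraries and Ptpn6 and Inpp5d are expressed in all 3 groups.

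Reported partners of the receptors were measured as well. *Fn1*, which encodes fibronectin, a ligand of gp49B, was lower in Th1 than in Naive and Th17 cells (log2 fold changes −5.15 and −5.17, edgeR adjusted p = 0.00207 and 0.00263, both lost without Th1 library 1), with 5.80 and 2.13 CPM in Naive, 3.44 and 4.75 CPM in Th17 and 0.0774 and 0.190 CPM in Th1 libraries. *Itgb3*, the integrin β3 subunit that gp49B binds with the αv subunit, was higher in Th1 than in Th17 cells (2.16, adjusted p = 0.00388, lost without either Th17 library or Th1 library 2), with 345 and 620 CPM against 115 and 101 CPM, and 134 and 193 CPM in Naive libraries. *Itgav* and *Il4ra*, the receptor chain with which Cd300lf associates, were not called in any of the 3 comparisons by edgeR.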

How the data were processed

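Counts per gene were deposited by the authors for 6 RNA-Seq libraries. According to the methods, paired reads of 150 bases were mapped to mm10 with HISAT2 2.2.1, duplicates were removed and reads of protein-coding genes were counted with HTSeq 0.13.5. The methods give default settings while the supplementary code gives a reverse strand setting, so how antisense reads were treated is not certain. The counts are whole numbers, not normalized.

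The main test was the quasi-likelihood test of edgeR 4.0.16, run in R 4.3.3 with limma 3.58.1. filterByExpr kept 13607 of 24223 genes, libraries were scaled by TMM, and the model was fitted to all 6 libraries with group as the only term. Calls required a Benjamini-Hochberg adjusted p under 0.01 together with a log2 fold change beyond 1 in either direction, and p-values were adjusted over all genes tested. CPM are TMM-scaled, profiles used a prior count of 2, and 95% intervals used the moderated degrees of freedom. A group with at most 3 counts in each library was taken as at the limit, and a fold against it is a bound. The test was checked on simulated counts. Sequences were read with Biopython 1.88 from GENCODE vM21 and RefSeq GRCm38.p6.

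The members and gene lists were chosen with earlier results of these data known. Named genes are the members, the 2 families, every called gene and the 3 most abundant of each other list, and the 5 nearest profiles of 3 members. Which of these are described with full values was decided after the values were seen. Some genes that meet the rule are not reported here. Alternatives were DESeq2 1.42.0, other scaling, filters and thresholds, thinning, a replicate block, 4 libraries at a time and leaving out each library. The similarity of profiles was not repeated under them. Replicate libraries of a group correlated at r = 0.970 to 0.978 over log2 CPM of genes, which are not independent replicates.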

Additional observations from a re-analysis of the deposited data

Results flagged for a closer look

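The change of *Cd300a* from Naive cells differed between the cultures: the test of that difference, Th1 against Th17, gave a log2 fold change of −4.50 (edgeR quasi-likelihood test, adjusted p = 0.00125), with values of 3.66 and 1.54 (Naive), 9.49 and 14.4 (Th17) and 0.572 and 0.443 CPM (Th1). Groups of 2 libraries were too small for a search for outlying samples.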

How the results depend on the processing

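In Th1 against Th17, *Cd300a* was called and *Gp49a* and *Lilrb4* were not under every alternative that kept them. The differences that chose *Gp49a*, *Lilrb4* and *Cd300lf*, and those of *Cd300ld*, which was kept only through its Th17 libraries, are listed as values and support nothing. *Cd300a* met the call threshold against Naive under DESeq2 (2.19 in Th17 and −2.33 in Th1), without a filter on low counts (2.15 and −2.33) and at an adjusted p under 0.05 (2.17 and −2.33). *Cd300ld* met it in Th17 against Naive with a bound of 17.9-fold under DESeq2, RLE scaling and an adjusted p under 0.05, 17.8-fold without a filter and 18.4-fold in the 4 libraries compared, and missed it in Th1 against Th17 with library size alone (16.4-fold) and after thinning (13.5-fold). *Cd300lf* in Th1 against Naive turned from 0.09 to −0.13 with library size alone, to −0.08 without Naive library 2 and to −0.39 without Th1 library 1, none of them called. Leaving out each library in turn gave, for Th17 against Naive, 7.09 to 8.18 for *Gp49a*, 7.10 to 7.50 for *Lilrb4*, 1.69 to 2.95 for *Cd300a*, 4.87 to 5.36 for *Cd300lf* and bounds of 5.26 to 59.7-fold for *Cd300ld*. For Th1 against Naive it gave 7.57 to 8.67, 6.68 to 7.25, −2.80 to −1.55 and −0.39 to 0.40 for the first 4, with *Cd300a* called without Naive library 2. For Th1 against Th17 it gave 0.13 to 0.79, −0.68 to −0.05, −4.79 to −4.18, −5.50 to −4.71 and bounds of 4.09 to 56.6-fold, the call of *Cd300ld* being lost without Th17 library 2 or either Th1 library. List genes called higher in Th17 against Naive, 22, became 35 without a filter, 5 with at least 10 counts in every library, 34 at an adjusted p under 0.05 and 9 to 24 with a library left out, and those lower, 0 by edgeR, became 1 under DESeq2, without a filter and at an adjusted p under 0.05. In Th1 against Naive the 4 higher became 7 under DESeq2 and at an adjusted p under 0.05, 8 without a filter, 2 with library size alone or at least 10 counts, and 1 to 4 with a library left out. The 3 lower became 7 under DESeq2, 9 without a filter and at an adjusted p under 0.05, 1 with at least 10 counts, in the 4 libraries compared and after thinning, and 0 to 6 with a library left out. In Th1 against Th17 the 23 lower became 7 with at least 10 counts and 10 to 27 with a library left out, and the 2 higher became 0 to 2. The causes were not tested, apart from the smaller number of genes that the stricter filter leaves. The differences between library 1 and library 2 correlated at −0.231 (Naive and Th17), 0.168 (Naive and Th1) and 0.077 (Th17 and Th1). Library 1 was the deeper one in every group, so these values cannot tell whether the replicate numbers pair the libraries. With the number as a replicate block, the list counts in Th1 against Naive were 7 higher and 5 lower, *Cd300ld* was called in Th17 against Naive (bound 17.9-fold), and no other call of a member changed. Per-length levels of *Gp49a*, *Lilrb4* and *Cd300lf* fell when the longest annotated transcript was used in place of the exon union, for *Lilrb4* in Th17 from 92.8 to 35.4 CPM per kb. The depth of the second library of each group, 17742158 to 18608805 counts, limits the levels near 3 counts.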
